A study of Rattus norvegicus with 6 samples.

Results

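The insulin-like growth factor (IGF) axis is described here by 10 of its genes, out of 18420 genes listed for rat primary chondrocytes. They were the ligands *Igf1* and *Igf2*, the receptors *Igf1r* and *Igf2r*, the receptor substrates *Irs1* and *Irs2*, and the binding proteins *Igfbp3*, *Igfbp4*, *Igfbp5* and *Igfbp6*. Each was found by its symbol, in 1 row. The genes were chosen by name, but also selected on values from the comparison of these same libraries, so the differences between the groups, and the count past the threshold of the fit across all genes, are given as a description, and nothing is supported with them.

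RNA-seq of 6 libraries compared wild-type chondrocytes of male Sprague-Dawley rats, taken from knee and hip cartilage and passaged in serum-containing culture. In the TNF-α group (n = 3) the cells received 10 ng/mL TNF-α, an inflammatory cytokine used to model osteoarthritis in culture, for 6 h. In the TNF-α+NFL group (n = 3) the same TNF-α treatment was followed by 24 h with NFL, a freeze–thaw lysate of Nanofat, the cell fraction of enzyme-digested fat. The question of this comparison was how NFL altered the RNA of TNF-α-treated chondrocytes. The treatment times given in the paper run to 6 h and 30 h, and it does not state when the TNF-α cells were harvested. Effects of NFL and of a later harvest therefore cannot be told apart, and the untreated NC group was not analysed here. The paper calls the replicates biologically independent, while the labels tie no library to an animal or a culture. Directions follow the deposited labels. In the supplementary gene list of the paper, differences derived for the same groups run the opposite way, and which naming is right was not settled.

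IGF-I and IGF-II are small secreted proteins that promote growth and matrix synthesis, and IGF-I is a main anabolic factor of cartilage. Both signal through the receptor tyrosine kinase encoded by *Igf1r*, which phosphorylates the substrates IRS1 and IRS2 and thereby engages the PI3K–AKT and RAS–MAPK cascades. The *Igf2r* product, also known as the cation-independent mannose 6-phosphate receptor, internalizes IGF-II for degradation and sorts lysosomal enzymes. The secreted binding proteins hold IGFs in the extracellular fluid and matrix, and proteases that cleave them release the ligand.

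The promoter sequences of both receptors and of one ligand are shown because the receptors were among the most abundant axis transcripts and the ligand among the least. They are the 250 bases upstream of the start of each gene, 5′ to 3′ on the gene's strand, from RefSeq (GRCr8), and capitals mark the GC box GGGCGG, searched on both strands. *Igf1r* lay at chr1:130959747-130959996 (+), *Igf2r* at chr1:50526628-50526877 (+) and *Igf1* at chr7:24172282-24172531 (+).
Igf1r: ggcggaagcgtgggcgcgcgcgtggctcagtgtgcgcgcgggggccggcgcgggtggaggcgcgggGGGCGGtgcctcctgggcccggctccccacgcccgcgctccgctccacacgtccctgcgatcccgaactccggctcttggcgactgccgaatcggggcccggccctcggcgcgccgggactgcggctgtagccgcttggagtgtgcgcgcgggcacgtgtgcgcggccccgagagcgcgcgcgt
Igf2r: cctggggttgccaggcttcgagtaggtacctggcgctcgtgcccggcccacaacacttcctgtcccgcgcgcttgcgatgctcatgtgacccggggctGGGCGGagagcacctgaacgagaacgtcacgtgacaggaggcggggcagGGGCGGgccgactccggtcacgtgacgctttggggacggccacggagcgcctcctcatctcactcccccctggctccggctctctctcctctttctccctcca
Igf1: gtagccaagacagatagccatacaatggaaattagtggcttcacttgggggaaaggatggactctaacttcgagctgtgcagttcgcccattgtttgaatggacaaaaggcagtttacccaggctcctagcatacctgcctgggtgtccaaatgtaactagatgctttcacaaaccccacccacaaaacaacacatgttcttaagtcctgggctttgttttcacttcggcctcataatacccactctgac

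The *Igf1r* window had a GC content of 79.6% with 45 CpG dinucleotides and 1 GC box. The *Igf2r* window had a GC content of 68.0%, 23 CpG and 2 GC boxes. The *Igf1* window had a GC content of 46.8%, 3 CpG and no GC box. Over all 33469 windows in the RefSeq table the median GC content was 51.2% and the 90th percentile 68.4%, the median CpG count was 5 and the 90th percentile 24, and 30.47% held a GC box. The promoter of *Igf1r* was thus above the 90th percentile for both measures, and that of *Igf1* below both medians. That of *Igfbp3* (71.6%, 31 CpG) was also above the 90th percentile for both. Among genes scarcer than the receptors, GC content was 70.8% for *Irs1* and 68.8% for *Igfbp4*. It was 62.4% and 63.6% for *Igf2*, 54.8% for *Igfbp6* and 51.6% for *Igfbp5*. A relation of these measures to abundance was not tested. A window was found for 9 of the 10 genes, with 2 for *Igf2* and none for *Irs2*. A TATA box (TATAAA, in 12.93% of all windows) stood only in that of *Igfbp4*, and a FOXO site (GTAAACA, in 3.215%) only in that of *Igfbp6*, both strands being searched. A match of letters is a description and not evidence of binding.

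The libraries held between 19344893 and 19725135 estimated counts, the authors' gene-level estimates of reads. All 10 genes passed the filter on low counts, as did 13250 genes in all. The TNF-α libraries differed among themselves with transcript length: in genes longer than 10 kb the median deviation from the mean of the 6 libraries was 0.155 on the log2 scale in TNF-α replicate 1, -0.070 in replicate 2 and -0.160 in replicate 3, and -0.002 to 0.072 in the TNF-α+NFL libraries. Leaving out TNF-α replicate 1 raised the genes past an adjusted p of 0.05 by edgeR from 81 to 930, and leaving out any other library gave 5 to 41. Of the marker genes for chondrocytes, 8 were listed, from *Prg4* (lubricin) at a mean of 1100 TPM to *Cnmd* (chondromodulin) at 0.0733 TPM. Apart from *Prg4*, all were at or below the 8.64 TPM of *Comp*, with *Acan* at 5.33 TPM and *Sox9* at 4.54 TPM. *Col2a1*, the main collagen of cartilage and the most defining of them, was at 8.47 TPM, and the fibroblast markers ran from *Col1a2*, a chain of type I collagen, at 141 TPM to the surface protein *Thy1* at 2565 TPM. Transcripts of cartilage collagen were therefore present but below those of type I collagen in these cultures. No marker gene tested passed an adjusted p of 0.05 by edgeR or limma-voom, nor any of those DESeq2 gave an adjusted p (1 of 7 chondrocyte and 6 of 6 fibroblast markers). Without TNF-α replicate 1, 2 of 6 fibroblast markers passed by edgeR (*Col1a1* and *Lum*, named after seeing them). At an unadjusted p under 0.05 by edgeR, where 11.1% of all genes were, 1 of 7 chondrocyte markers was higher (*Col2a1*, log2 fold change 0.23 ± 0.071) and, of 6 fibroblast markers, 1 was higher and 1 lower. Adipocyte markers, from *Lep* at 0.02 TPM to *Fabp4* at 32.1 TPM, summed to 14.7–18.4 CPM (counts scaled to a common library size) in TNF-α and 15.5–18.0 in TNF-α+NFL, with overlap. Endothelial markers, with *Pecam1* the most abundant at 0.0933 TPM, summed to 0.202–0.419 and 0.204–0.563 CPM, with *Kdr* at 0 in every library. Blood and macrophage markers summed to 22.8–28.9 and 20.02–25.9 CPM, most of it *Cd68* at 38.7 TPM, with *Hba1* the least abundant at 0.03 TPM. *Csf1r* was at 2.09 CPM in TNF-α replicate 1 and at most 0.354 CPM elsewhere. In that library *Lyz2* had 14.95 counts and *Ptprc* 7, against 0 and at most 2 elsewhere. The part of these markers in the results was not tested. In such bulk RNA, fewer cells of a type and less RNA per cell cannot be told apart.

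Among the axis genes, the receptors and *Igfbp3* were the most abundant, and both ligands were scarce. Levels are in TPM (the deposited abundance scaled to transcript length and to a constant sum) as the mean ± SD of all 6 libraries. *Igf2r* was at 125 ± 11.3 TPM, *Igfbp3* at 85.6 ± 5.02 TPM and *Igf1r* at 41.8 ± 5.0 TPM. These were followed by *Irs2* at 10.2 ± 0.818 TPM, *Irs1* at 3.98 ± 0.409 TPM and *Igfbp6* at 3.83 ± 0.767 TPM. The lowest were *Igf1* at 2.27 ± 0.581 TPM, *Igf2* at 2.08 ± 0.312 TPM, *Igfbp4* at 2.07 ± 0.359 TPM and *Igfbp5* at 1.12 ± 0.154 TPM. From *Irs1* to *Igfbp4* the ranges of neighbours in this order overlapped, although *Igfbp6* was above *Igf1* within each of the 6 libraries. In TNF-α replicate 1 this was only 3.08 against 2.90 TPM. The order also rests on the lengths assigned to *Igf1*, which differed between the libraries as given below. The upper 4 genes and *Igfbp5* were each separated from their neighbours in all 6 libraries.

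**Figure D1:**
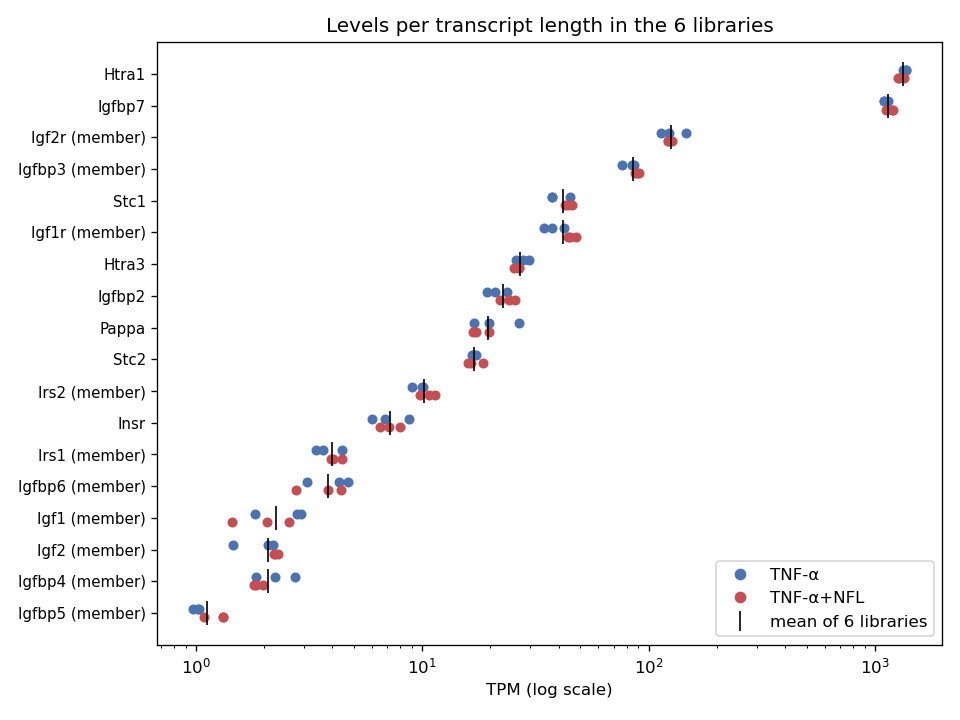
Levels of the IGF axis genes, marked as members, and of other secreted or receptor genes of the pathway, in TPM on a log axis, with 1 point per library (blue, TNF-α; red, TNF-α+NFL) and a black bar for the mean of 6 libraries. *Igf2r*, *Igfbp3* and *Igf1r* lie well above the ligands *Igf1* and *Igf2*, and *Htra1* and *Igfbp7* lie above every axis gene.

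The ligand *Igf1*, the main growth hormone-regulated IGF, differed little between the groups. It was at 7.17, 5.72 and 5.06 normalized CPM in the TNF-α libraries (replicates 1, 2 and 3) and at 5.72, 4.56 and 6.87 CPM in the TNF-α+NFL libraries. The groups overlapped and the spread within each was larger than the difference of their means, with a log2 fold change (TNF-α+NFL relative to TNF-α, by edgeR) of -0.06 ± 0.17 (SE). It became -0.22 when TNF-α+NFL replicate 3 was left out and turned sign, to 0.09, when TNF-α replicate 1 was. The estimated counts behind these values were 89 to 137. The length that the authors' quantification assigned to the *Igf1* transcripts, recovered here as the ratio of the estimated count to FPKM and library size, varied from 3964 bases in TNF-α replicate 2 to 6322 bases in TNF-α+NFL replicate 2, which is more than for any other axis gene. On the length-scaled FPKM values, with 0.1 added, the log2 fold change of *Igf1* was -0.31 by limma. Which of these changes in processing moved it was not tested.

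The second ligand, *Igf2*, an imprinted fetal growth factor, was at 4.03, 3.998 and 2.93 CPM in TNF-α and at 4.24, 4.30 and 4.17 CPM in TNF-α+NFL. All 3 TNF-α+NFL values were above the TNF-α values, though by little for replicates 1 and 2, and TNF-α replicate 3 was the lowest. The log2 fold change was 0.21 ± 0.15 (SE), from 58 to 84 counts per library. Without TNF-α replicate 3 it was 0.08. The ratio of *Igf1* to *Igf2* in TPM was 1.32, 1.35 and 1.25 in TNF-α and 0.928, 0.630 and 1.15 in TNF-α+NFL. This ratio rests on the lengths assigned to *Igf1*, which differed between the libraries as given above, so no order of the ligands is read from it.

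The receptor *Igf1r* was the axis gene with the clearest separation of the groups. It was at 213, 221 and 209 CPM in TNF-α and at 260.1, 266 and 255 CPM in TNF-α+NFL, that is, 214 ± 6.04 and 260 ± 5.27 CPM (SD, n = 3 each). Every TNF-α+NFL library lay above every TNF-α library, and the gap exceeded the range within either group. The mean was 1.22 times that of TNF-α, a log2 fold change of 0.28 ± 0.039 (SE), from 4065 to 5191 counts per library. In TPM the values were 42.1, 37.3 and 34.5 against 45.0, 47.8 and 44.0. The groups stayed apart on this scale, with TNF-α replicate 1 nearest to the other group, and in that library the length assigned to *Igf1r* was 10102 bases against 11175 to 11639 bases elsewhere.

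**Figure D2:**
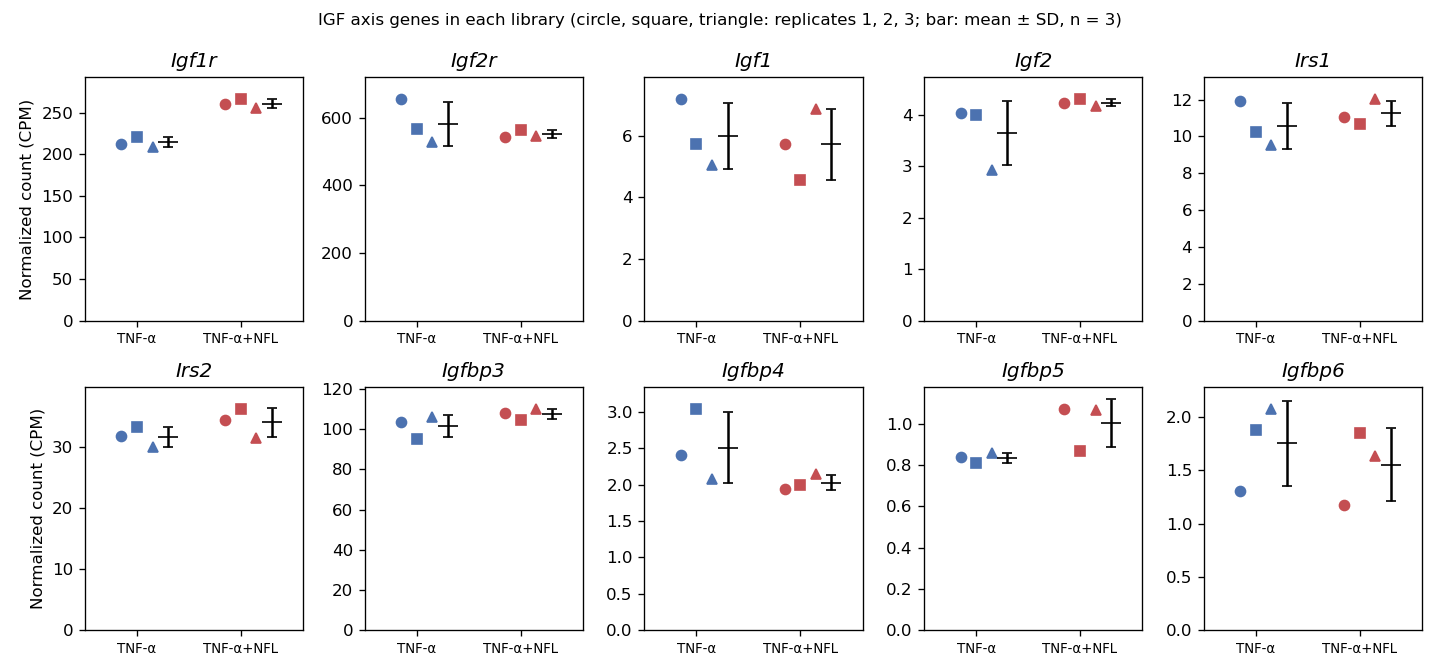
Normalized counts (CPM, TMM-scaled, axes from 0) of the 10 IGF axis genes in each library, with circles, squares and triangles for replicates 1, 2 and 3 and black bars for the mean ± SD (n = 3). The groups separate widely only for *Igf1r*, at 214 ± 6.04 CPM in TNF-α and 260 ± 5.27 CPM in TNF-α+NFL, and narrowly for *Igf2* and *Igfbp5*.

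*Igf2r* was at 655, 566 and 527 CPM in TNF-α and at 544, 564 and 545 CPM in TNF-α+NFL. TNF-α replicate 1 was the highest, TNF-α replicate 3 the lowest, and the 3 TNF-α+NFL libraries lay between them. The log2 fold change was -0.08 ± 0.072 (SE), and became -0.15 when TNF-α replicate 3 was left out and 0.01 when TNF-α replicate 1 was. The ratio of *Igf2r* to *Igf1r* in TPM was 3.48, 3.29 and 3.28 in TNF-α and 2.70, 2.66 and 2.75 in TNF-α+NFL. The scavenging receptor thus stayed the more abundant in every library, by a smaller factor in TNF-α+NFL, where *Igf1r* was higher.

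Both receptors are encoded by long transcripts, of 11510 bases (*Igf1r*) and 8931 bases (*Igf2r*) by the median assigned length, and the libraries differed in a trend with transcript length. Over all genes the median log2 fold change ran from -0.08 for transcripts of up to 1 kb to 0.04 for 8 to 10 kb and 0.03 above 10 kb. The log2 deviations of *Igf2r* from its mean were 0.21, 0.00137 and -0.10 in TNF-α, the same order of the 3 replicates as in other long genes. Those of *Igf1r* were -0.15, -0.10 and -0.18 in TNF-α and 0.14, 0.17 and 0.11 in TNF-α+NFL, so that TNF-α replicate 1 was low in *Igf1r* while high in long genes generally. With each library's length trend removed, the log2 fold change of *Igf1r* was 0.22 and that of *Igf2r* -0.13. With TNF-α replicate 1 also left out, a setting added after the data had been seen, it was 0.14 for *Igf1r* and -0.11 for *Igf2r*.

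**Figure D3:**
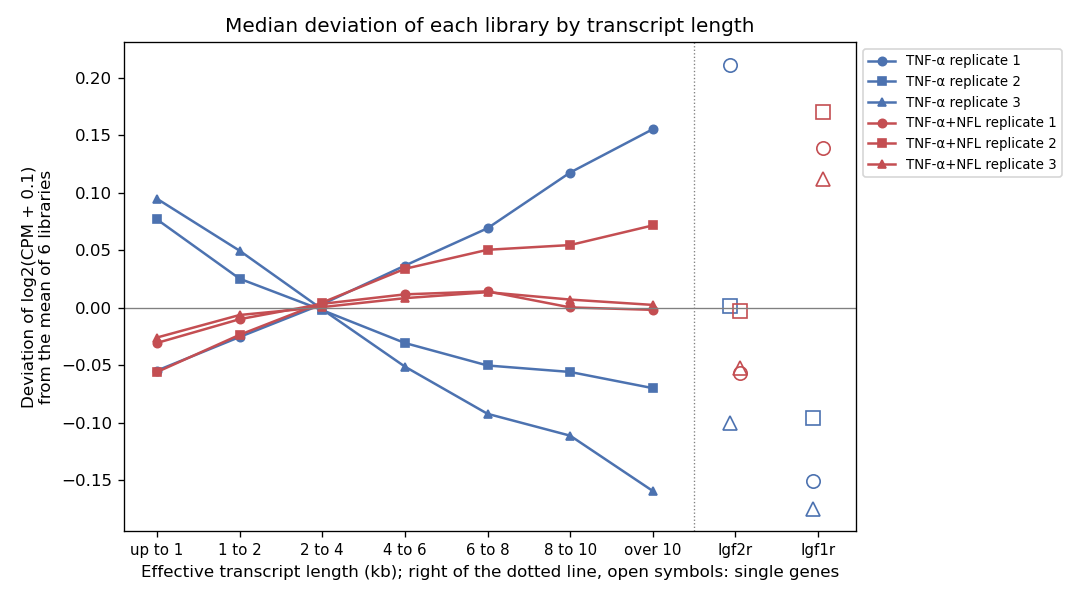
Median deviation of each library from the mean of the 6 libraries, in log2(CPM + 0.1), for genes grouped by effective transcript length in kb, with the single genes *Igf2r* and *Igf1r* as open symbols to the right of the dotted line. TNF-α replicate 1 rises to 0.155 above 10 kb and TNF-α replicate 3 falls to -0.160, while for *Igf1r* all 3 TNF-α libraries lie below 0 and all 3 TNF-α+NFL libraries above it.

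The receptor substrates were near the same level in both groups. *Irs1*, the docking protein of insulin and IGF receptors, was at 11.9, 10.2 and 9.56 CPM in TNF-α and at 11.0, 10.7 and 12.02 CPM in TNF-α+NFL, with overlap and a log2 fold change of 0.09 ± 0.096 (SE). Leaving out a library moved this between 0.03 (TNF-α replicate 3 left out) and 0.19 (TNF-α replicate 1 left out). Its relative *Irs2* was at 31.7, 33.3 and 30.0 CPM in TNF-α and at 34.4, 36.2 and 31.4 CPM in TNF-α+NFL. These values overlapped as well, with a log2 fold change of 0.10 ± 0.064 (SE), or 0.05 with the length trend removed and 0.06 to 0.16 over the left-out libraries (lowest without TNF-α+NFL replicate 2, highest without TNF-α+NFL replicate 3). *Irs2* was the more abundant substrate in every library, at 2.22 to 2.87 times the TPM of *Irs1*.

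Of the binding proteins, *Igfbp3*, whose product is the main IGF carrier of serum, accounted for 72.5% to 75.7% of the summed TPM of *Igfbp2* to *Igfbp6*. It was at 103, 95.2 and 106 CPM in TNF-α and at 108, 105 and 110.0 CPM in TNF-α+NFL. The groups overlapped through TNF-α replicate 3 and TNF-α+NFL replicate 2, and the log2 fold change was 0.08 ± 0.047 (SE), or 0.04 without TNF-α replicate 2.

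*Igfbp4*, an inhibitor of IGF action that is cleaved by the protease pappalysin-1, was at 2.41, 3.04 and 2.07 CPM in TNF-α and at 1.94, 2.00 and 2.14 CPM in TNF-α+NFL. The log2 fold change of -0.31 ± 0.19 (SE) was -0.14 without TNF-α replicate 2, the highest library, and TNF-α replicate 3 lay within the range of the other group. *Igfbp5*, which binds matrix as well as IGFs, was at 0.838, 0.810 and 0.859 CPM in TNF-α and at 1.07, 0.871 and 1.07 CPM in TNF-α+NFL. These groups did not overlap, but the counts were 16 to 21, and the log2 fold change was 0.26 ± 0.25 (SE). *Igfbp6*, which prefers IGF-II, was at 1.31, 1.87 and 2.07 CPM in TNF-α and at 1.17, 1.84 and 1.63 CPM in TNF-α+NFL, with overlap and a log2 fold change of -0.18 ± 0.24 (SE). Leaving out a library moved it to -0.35 (TNF-α replicate 1 left out) at one end and -0.01 (TNF-α+NFL replicate 1 left out) at the other. At 16 to 60 counts per library, differences of this size in *Igfbp4*, *Igfbp5* and *Igfbp6* were not resolved at this depth.

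**Figure D4:**
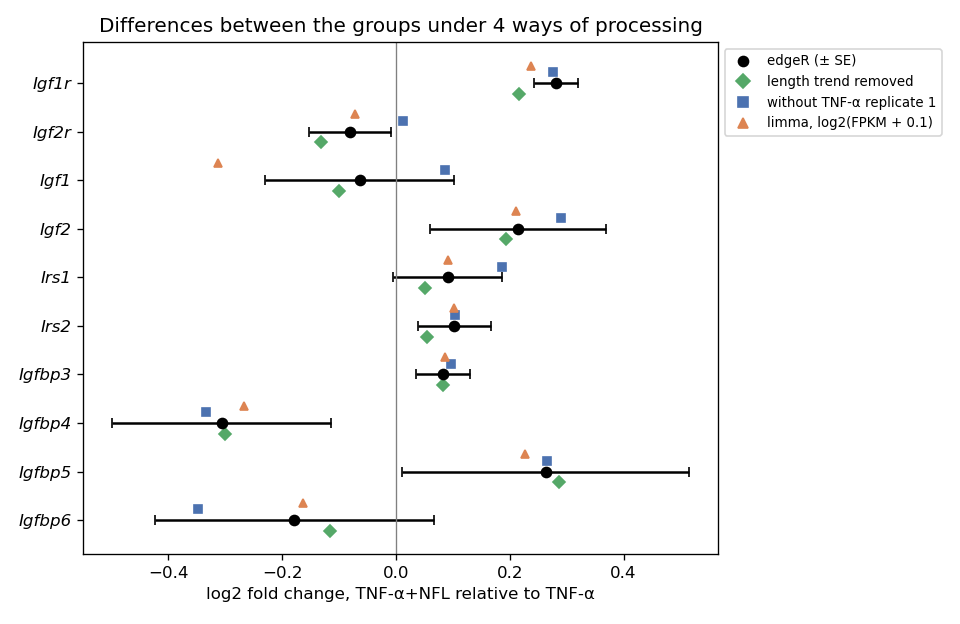
Log2 fold changes (TNF-α+NFL relative to TNF-α) of the 10 IGF axis genes by edgeR (black, ± SE), with the length trend removed (green), without TNF-α replicate 1 (blue squares) and by limma on log2(FPKM + 0.1) (orange). *Igf1r* stays above 0 at 0.22 to 0.28, *Igf1* spreads from -0.31 to 0.09, and *Igf2r* passes 0 without TNF-α replicate 1.

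In the fit across all genes, 1 of the 10 genes, *Igf1r*, was past an adjusted p of 0.05 as higher in TNF-α+NFL, where 0.408% of the 13250 genes tested were, and none was lower, where 0.204% were. *Igf1r* was past it in 11 of 16 alternatives and not with the length trend removed, where *Igf2r* was instead past it as lower. The replicates did not overlap for 3 of the 10 as higher (*Igf1r*, *Igf2* and *Igfbp5*), beside 8.66% of all genes, and for none as lower, beside 8.17%. The log2 fold changes were above 0 for 6 genes and below 0 for 4, with a median of 0.09 beside a median over all genes of -0.0035. As the genes were selected on this comparison, nothing is read from these counts.

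The other genes of the IGF pathway were taken from a list written with earlier results of these libraries known, and were tested within the same fit. Of 70 genes listed, 66 were in the table and 63 were tested. None passed an adjusted p of 0.05 by edgeR's quasi-likelihood test or by limma-voom, nor did any of the 47 to which DESeq2 gave an adjusted p. At an unadjusted p under 0.05 by edgeR, 7 were higher and 5 lower, or 12 of 63 beside 11.1% of all genes. The median log2 fold change was 0.0027, with 33 genes above 0 and 30 below. Without TNF-α replicate 1, 7 of 63 passed, beside 930 of the 13409 genes tested in that fit, with *Gsk3b*, *Ptpn11*, *Rictor* and *Stc1* higher and *Hras*, *Htra1* and *Map2k2* lower, and these names outside the rule were given after their values had been seen.

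Among the binding proteins outside the chosen genes, *Igfbp7*, a low-affinity relative of the family, was at 1142 TPM, or 12.6 to 14.4 times *Igfbp3* in each library. It was at 621, 619 and 622 CPM in TNF-α and at 614, 643 and 660.1 CPM in TNF-α+NFL, with a log2 fold change of 0.04 ± 0.038 (SE), which became 0.07 when TNF-α+NFL replicate 1 was left out and 0.02 when TNF-α+NFL replicate 3 was. *Igfbp2*, a binding protein abundant in fetal tissue, was at 22.7 TPM, with a log2 fold change of 0.14 ± 0.085, or 0.08 and 0.09 when replicate 2 of TNF-α or of TNF-α+NFL was left out. *Igfbp1*, the liver-type binding protein, was at 0 in all 6 libraries, and *Igfals*, which stabilizes the circulating IGF complex, had at most 1 count. The insulin receptor *Insr* was at 7.19 TPM with a log2 fold change of -0.03 ± 0.13 (0.11 with TNF-α replicate 1 left out), and *Igf1r* was at 4.81 to 6.90 times its TPM.

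The proteases that cleave binding proteins, and the inhibitors of these proteases, included the most abundant transcript of the pathway's secreted genes. *Htra1*, a serine protease with binding proteins among its substrates, was at 1330 TPM. It was at 1386, 1389 and 1442 CPM in TNF-α and at 1293, 1272 and 1360.5 CPM in TNF-α+NFL, so that the groups did not overlap. Its log2 fold change of -0.10 ± 0.039 (SE) had an adjusted p of 0.32 by edgeR and did not pass. Its relative *Htra3* was at 27.1 TPM with a log2 fold change of -0.12 ± 0.055, without overlap and with an adjusted p of 0.45 by edgeR. *Pappa*, which encodes pappalysin-1, was at 19.5 TPM with a log2 fold change of -0.23 ± 0.14, or -0.10 without TNF-α replicate 1, its highest library. *Pappa2* was at 0.25 TPM, with a log2 fold change of -0.37 ± 0.26, or -0.12 without TNF-α replicate 2. The pappalysin inhibitors *Stc1* and *Stc2* were at 42.0 and 16.9 TPM, with log2 fold changes of 0.11 ± 0.060 and -0.02 ± 0.099. With TNF-α replicate 1 left out, *Stc1* was at a log2 fold change of 0.19.

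None of the 3 genes for proteins that bind *Igf2* mRNA passed, and each log2 fold change was smaller in size than its SE. *Igf2bp2* was at 34.1 TPM with a log2 fold change of 0.0018 ± 0.042, *Igf2bp3* at 13.5 TPM with 0.04 ± 0.066 and *Igf2bp1* at 0.397 TPM with -0.06 ± 0.24 (SE). That of *Igf2bp3* was 0.11 with TNF-α replicate 1 left out and 0.00039 with TNF-α replicate 2 left out. Downstream of the receptor, none of the 12 tested genes of PI3K and AKT signaling, of 8 of mTOR signaling or of 11 of RAS and MAPK signaling passed. The highest and lowest log2 fold changes of the pathway list were those of *Socs2* and *Socs1*, feedback inhibitors of cytokine and growth factor receptors, named with their relative *Socs3* after the values had been seen. *Socs2* was at 0.681, 0.658 and 0.455 CPM in TNF-α and at 1.17, 1.23 and 0.967 CPM in TNF-α+NFL, with a log2 fold change of 0.90 ± 0.28 (SE). *Socs1* was at 1.31, 1.52 and 1.32 CPM in TNF-α and at 1.07, 0.615 and 0.509 CPM in TNF-α+NFL, with a log2 fold change of -0.91 ± 0.29 (SE). Neither pair of groups overlapped, as for 10 higher and 8 lower of the 63 pathway genes tested, beside 8.66% and 8.17% of all genes. The counts per library were only 9.41 to 24.12 for *Socs2* and 10 to 30 for *Socs1*, and the adjusted p by edgeR was 0.22 and 0.23. *Socs3*, at 49.7 TPM, had a log2 fold change of -0.26 ± 0.075 (SE), also without overlap, with an adjusted p of 0.21 by edgeR.

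The FOXO factors, which AKT keeps out of the nucleus when IGF receptors are active, induce genes of stress resistance and growth arrest. Of 12 such targets tested, none passed by edgeR or limma-voom, nor any of the 7 to which DESeq2 gave an adjusted p, and at an unadjusted p under 0.05 by edgeR none was higher and 2 were lower, beside 11.1% of all genes in either direction. Their median log2 fold change was -0.03. The most abundant, *Sod2*, the mitochondrial superoxide dismutase and also an NF-κB target, was at 1161 TPM with a log2 fold change of -0.11 ± 0.040 (SE) and an adjusted p of 0.32 by edgeR. *Cited2*, a transcriptional co-regulator, was at 426 TPM with a log2 fold change of -0.05 ± 0.040, which ranged from -0.08 (TNF-α+NFL replicate 3 left out) to -0.02 (TNF-α+NFL replicate 1 left out), and was -0.03 with TNF-α replicate 3 left out.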

How the data were processed

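RNA-seq libraries of 3 TNF-α and 3 TNF-α+NFL samples were analysed, grouped by the deposited labels. Poly(A) RNA was sequenced as 50-base single-end reads, and the submitters' processing notes name HISAT2 2.0.4, Bowtie2 2.2.5, RSEM 1.2.12 and the build Rnor_6.0. The authors deposited estimated counts per gene, not normalized, with 27.3% to 28.0% of them fractional per library. The authors also deposited FPKM values, scaled to transcript length and mapped reads, and TPM values, scaled to length and a constant sum. RSEM divides reads between similar copies, so near-identical genes are uncertain.

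After rounding, edgeR 4.0.16 (R 4.3.3) was run on the estimated counts with its default expression filter, TMM scaling and a two-sided robust quasi-likelihood test, adjusted by Benjamini-Hochberg over 13250 genes at a threshold of 0.05. The SE was derived from the fold change and F statistic. With 3 against 3 libraries, the smallest two-sided exact permutation p is 0.1. The test was checked on simulated counts. The biological coefficient of variation was 6.39%. A chi-square per degree of freedom of 2.70 to 13.8 between replicates showed no library deposited in duplicate within a group. Libraries of different groups were not compared in this way. DESeq2 1.42.0, limma 3.58.1, other filters, FPKM, removal of each library's length trend, a replicate block and leaving out each library were alternatives. Levels between genes were compared in TPM. *Pappa* was matched by gene identifier through RefSeq (GRCr8), whose table held 17068 of the 18420 identifiers, and was otherwise used for promoter windows, since no genome of the files' build was used.

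The members and lists were chosen with earlier results of these data known. Named were the 10 axis genes, the pathway's other binding proteins, proteases and their inhibitors, receptors and *Igf2* mRNA regulators, any other pathway gene or FOXO target past the threshold, the 2 most abundant FOXO targets, and the most and least abundant gene of each marker list. Exceptions are marked in the text or, for *Col2a1*, *Comp*, *Acan*, *Sox9*, *Csf1r*, *Lyz2* and *Ptprc*, were chosen after their values were seen.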

Additional observations from a re-analysis of the deposited data

How the results depend on the processing

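Across 16 alternatives the log2 fold change of *Igf1r* kept its sign, between 0.14 and 0.31, and it was past the threshold in 11. It was not with the length trend removed (0.22), on FPKM by limma (0.23 with 1 added, 0.24 with 0.1 added), or by edgeR without TNF-α+NFL replicate 1 (0.28) or 2 (0.27), so that the count of axis genes called higher was 0 there, and 0 to 1 over the left-out replicates. *Igf2r* was the 1 axis gene called lower with the length trend removed, and again with TNF-α replicate 1 also left out (1), a setting chosen after seeing the data. The cause was not tested.

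The counts over all genes depended most on the processing. Beside 54 higher and 27 lower, they were 84 and 48 without a filter, 95 and 53 by DESeq2, 3 and 3 or 7 and 6 by limma on FPKM with 1 or 0.1 added, 142 and 90 with the length trend removed, 100 and 64 at an adjusted p under 0.1, 5 to 460 and 0 to 470 over the left-out replicates (the highest without TNF-α replicate 1), and 210 and 171 in the added setting. With a replicate block they were 25 and 9, and the block changed no call of the axis genes, the pathway or the FOXO targets. Libraries with the same number had correlations of 0.030, -0.024 and 0.10 in their deviations, so the numbers were not taken as pairs.

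Pathway genes called higher ran from 0 to 4 and those called lower from 0 to 3 over the left-out replicates, with 2 (*Igfbp7*, *Stc1*) and 1 (*Pappa*) in the added setting. FOXO targets called lower were 1 (*Sesn3*) with the length trend removed, 0 to 1 (*Sod2*) over the left-out replicates and 2 in the added setting. Log2 fold changes near 0 turned sign: *Stc2* (0.035 with the length trend removed, 0.072 in the added setting, -0.089 to 0.023 over the left-out replicates), *Insr* (0.039 in the added setting, -0.13 to 0.11), *Igf2bp1* (0.011 and 0.029 on FPKM with 1 and 0.1 added, -0.18 to 0.077) and *Igf2bp2* (-0.019 with the length trend removed, -0.025 in the added setting, -0.0047 to 0.011). *Igf1* turned sign in 3 of 16 alternatives and *Igf2r* in 1. DESeq2 gave no adjusted p for 6 of the 10 axis genes, those with the fewest counts.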
